A study of Homo sapiens with 14 samples.

Results

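Oxidative phosphorylation subunits are the 87 genes, of 23106 symbols counted in each library, whose symbols name a nuclear-encoded subunit of respiratory complexes I to V. They were chosen by symbol alone (NDUFA, NDUFB, NDUFC, NDUFS and NDUFV genes, SDHA to SDHD, UQCR genes, CYC1, COX4 to COX8 genes and ATP5 genes), with the NDUFAF assembly factors and 2 pseudogene symbols left out. They comprised 36 genes of complex I, 4 of complex II, 10 of complex III, 19 of complex IV and 16 of complex V. The symbols ATP5S and ATP5SL were also matched, but neither names an ATP synthase subunit, and ATP5SL is known as a factor in complex I assembly. NDUFA4 and its relative NDUFA4L2 carry complex I names and were counted with complex IV, where NDUFA4 resides. The subunits encoded by mitochondrial DNA are not analysed here.

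Complexes I to IV pass electrons from NADH and succinate to oxygen and, apart from complex II, pump protons across the inner mitochondrial membrane, and complex V (ATP synthase) uses that gradient to make ATP. Cytochrome c oxidase, complex IV, consumes the oxygen, and several of its nuclear subunits exist as paired isoforms, one expressed in most tissues and the other in heart and muscle, in testis or in low oxygen. NDUFA4L2 and COX4I2 are the isoforms known from other cells to be induced by the hypoxia-inducible factor HIF, in place of NDUFA4 and COX4I1 respectively.

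Polyadenylated RNA was sequenced from PC3 cells, a prostate cancer line, and HCT116 cells, a colorectal cancer line, each kept for 16 h in normoxia at 21% oxygen or in hypoxia at 0.5% oxygen, with 4 libraries at each oxygen level for PC3 and 3 for HCT116. No gene was deleted and no drug was given in these 14 libraries. PC3 was grown in DMEM/Ham's F12 and HCT116 in McCoy's 5a, so the line, its medium and any batch in which a line was prepared cannot be told apart. Levels are given in CPM, read counts relative to library size, where library size was scaled by the trimmed mean of M values (TMM). The libraries held 71228454 to 123935458 counts in PC3 and 133067391 to 150630928 in HCT116. By these totals, without TMM scaling, 3 counts corresponded to 0.0199 to 0.0421 CPM. The 87 genes took 0.760% to 1.11% of the counts of a PC3 library and 1.24% to 1.48% of an HCT116 library. Epithelial markers summed to 2823 to 3959 CPM in all libraries, colon markers to 0.0894 to 0.232 CPM in PC3 and 16.3 to 21.0 CPM in HCT116, and prostate luminal markers to 102 to 132 CPM in PC3 and 16.5 to 19.4 CPM in HCT116. Fibroblast markers summed to 6.14 to 12.6 CPM over all libraries, leukocyte markers to 35.9 to 52.8 CPM in PC3 and 7.82 to 14.3 CPM in HCT116, and muscle markers to at most 0.134 CPM in PC3 and 2.15 CPM in HCT116. The leukocyte sum was almost all CD68, with means of 36.2 and 45.9 CPM in PC3 normoxia and hypoxia and 8.29 and 13.4 CPM in HCT116. Group means of PTPRC, CD3E, CD14 and MS4A1 were at most 0.605 CPM. The fibroblast sum was mostly COL1A1, with group means of 7.07 to 10.6 CPM. All 6 of the hypoxia-inducible genes checked (CA9, NDRG1, ANGPTL4, ADM, EGLN3 and VEGFA) rose in both lines, by log2 fold changes of 0.65 to 3.38 in PC3 and 1.10 to 6.03 in HCT116.

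Of the 87 genes, 81 had enough counts to be tested in each line. The other 6 were COX4I2, COX6A2, COX7A1, COX7B2, COX8C and ATP5L2. All are isoforms or copies, and none of them exceeded 7 counts in any library. Exons of 26 members overlap those of another counted gene, on the opposite strand for 21 of them. The strand setting of the counting is not given in the sources used here. Counts of these members may therefore hold reads of the partner, or lack reads that lie in exons of both genes. Among the genes named below this applies to COX4I1, NDUFA4L2, NDUFA13, NDUFB3, NDUFB9, NDUFB11, NDUFC2, NDUFS1, NDUFS3, NDUFS8, ATP5J2, ATP5S and UQCRQ.

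COX6B2 rose in PC3, SDHA and UQCRC1 rose in HCT116, and COX4I1 is the common isoform whose hypoxic counterpart was not detected. The stretches upstream of these 4 members are shown, and not those of every member that changed in hypoxia. Each is the 250 bases before the RefSeq start on GRCh38.p14, on the strand of the gene, with capitals marking the core of the hypoxia response element (ACGTG or GCGTG on either strand, where matches may overlap each other), the motif to which HIF binds. The positions are chr19:55354720-55354969 (minus strand) for COX6B2, chr5:218070-218319 (plus) for SDHA, chr3:48609647-48609896 (minus) for UQCRC1 and chr16:85799445-85799694 (plus) for COX4I1.
COX6B2: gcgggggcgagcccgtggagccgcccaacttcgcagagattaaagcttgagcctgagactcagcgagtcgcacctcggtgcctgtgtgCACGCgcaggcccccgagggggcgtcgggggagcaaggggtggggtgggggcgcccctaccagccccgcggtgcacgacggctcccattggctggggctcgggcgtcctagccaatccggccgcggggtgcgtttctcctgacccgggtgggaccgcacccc
SDHA: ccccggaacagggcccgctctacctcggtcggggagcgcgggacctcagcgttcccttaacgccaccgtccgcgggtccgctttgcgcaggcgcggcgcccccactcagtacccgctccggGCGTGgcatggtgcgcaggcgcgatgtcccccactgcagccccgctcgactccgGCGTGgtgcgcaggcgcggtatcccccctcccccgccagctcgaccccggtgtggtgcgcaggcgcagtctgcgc
UQCRC1: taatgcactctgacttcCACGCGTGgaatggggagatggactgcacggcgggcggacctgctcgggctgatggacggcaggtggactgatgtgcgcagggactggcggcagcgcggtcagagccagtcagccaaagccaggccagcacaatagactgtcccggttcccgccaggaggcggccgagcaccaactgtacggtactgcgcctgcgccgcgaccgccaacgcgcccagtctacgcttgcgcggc
COX4I1: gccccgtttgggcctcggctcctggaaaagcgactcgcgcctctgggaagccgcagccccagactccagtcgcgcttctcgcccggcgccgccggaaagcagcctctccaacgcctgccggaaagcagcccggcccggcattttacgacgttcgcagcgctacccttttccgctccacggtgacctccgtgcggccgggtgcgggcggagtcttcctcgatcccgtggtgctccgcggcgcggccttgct

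The core was found once upstream of COX6B2, at 2 places upstream of SDHA and at 2 overlapping places upstream of UQCRC1, and was not among the letters of the COX4I1 window. NDUFA13 and NDUFB11, which also rose in HCT116, held it at 1 place each, and NDUFB3, which fell there, did not hold it. Members not called in hypoxia could hold more, as NDUFV3 (3) and NDUFA1 (3). Of the 67 members with a RefSeq promoter entry, 41 (61.2%) held the core, against 47.4% of the 27303 genes searched. By complex, 22 of 31 genes of complex I held it, 2 of 3 of complex II, 5 of 7 of complex III, 5 of 14 of complex IV and 7 of 11 of complex V. The letters CCGGAAG, the core bound by ETS family factors such as GABP, were in 17 of the 67 (25.4%) and in 10.2% of all genes searched. The palindromic core of the mitochondrial biogenesis factor NRF1 was in 3 members (4.48%, against 1.28% of all), and AAGATGGC, a core for YY1, was in 1 (1.49%, against 1.64%). A gene counted as holding a core if any of its listed promoters did, both strands were read, and a match is a description of these letters, not of binding.

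The first question was whether hypoxia moved the subunits in PC3. Only 1 of the 81 tested passed the threshold, COX6B2, and it rose. Across all 14309 genes tested in PC3, 6.03% rose and 5.29% fell by the same rule (edgeR's quasi-likelihood test, adjusted p under 0.05). In this fit, without a block for the replicate number, none of the 36 genes of complex I or the 4 subunits of complex II passed. Nor did the 10 genes of complex III or the 15 tested genes of complex V. With the replicate number as a block, 1 gene passed in each of these complexes and rose, as given below. In bulk RNA of this kind, less RNA of a gene in every cell and fewer cells expressing it cannot be told apart.

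COX6B2 is the testis isoform of a complex IV subunit whose common form is COX6B1. It lies at chr19:55860674-55866087 (GRCh37, minus strand). Its level was 1.07, 0.759, 0.572 and 0.572 CPM in the 4 normoxic PC3 libraries and 1.73, 1.44, 1.54 and 1.36 CPM in the 4 hypoxic ones. All 4 hypoxic libraries lay above all 4 normoxic ones, and the change was 2.04-fold (log2 fold change 1.03, SE 0.23, adjusted p = 0.0232 by edgeR). The counts behind it were small, 59 to 128 in normoxia and 91 to 158 in hypoxia. The call was kept in each of the 8 other settings tried and was lost when any one of 4 libraries was left out (PC3 normoxia replicate 2, 3 or 4, adjusted p = 0.0739, 0.0803 and 0.0650, or PC3 hypoxia replicate 2, adjusted p = 0.0587), with log2 fold changes of 0.92 to 1.06 in those fits.

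COX6B1, its common counterpart, stood at 75.1, 87.2, 85.7 and 88.9 CPM in PC3 normoxia and 82.5, 91.7, 86.0 and 136 CPM in hypoxia, so the ranges overlapped (log2 fold change 0.24, SE 0.15, adjusted p = 0.330). Per length of transcript, COX6B2 made up 0.200% to 0.443% of the pair in PC3 normoxia and 0.310% to 0.649% in PC3 hypoxia. Testis markers summed to 0.0596 to 0.298 CPM in PC3.

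In HCT116 the level of COX6B2 was 0.643, 0.496 and 0.851 CPM in normoxia and 0.378, 0.583 and 0.567 CPM in hypoxia, with overlapping ranges (log2 fold change -0.37, SE 0.27, adjusted p = 0.346). The difference between the lines in its response had a log2 value of -1.41 (HCT116 minus PC3, SE 0.37) and did not pass (adjusted p = 0.0651). With the replicate block it did, at -1.43 (adjusted p = 0.0197). IL11, the interleukin gene 9663 bp further along chromosome 19 on the same strand (chosen after its values were seen), stood at 1.65 to 2.84 CPM in PC3 normoxia and 5.44 to 7.97 CPM in PC3 hypoxia (log2 fold change 1.43, SE 0.19, adjusted p = 0.00272). The part of this neighbour in the reads counted for COX6B2 was not tested. SUV420H2, which ends 1185 bp from COX6B2 on the opposite strand, did not pass (log2 fold change -0.16, SE 0.13, adjusted p = 0.458).

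**Figure D1:**
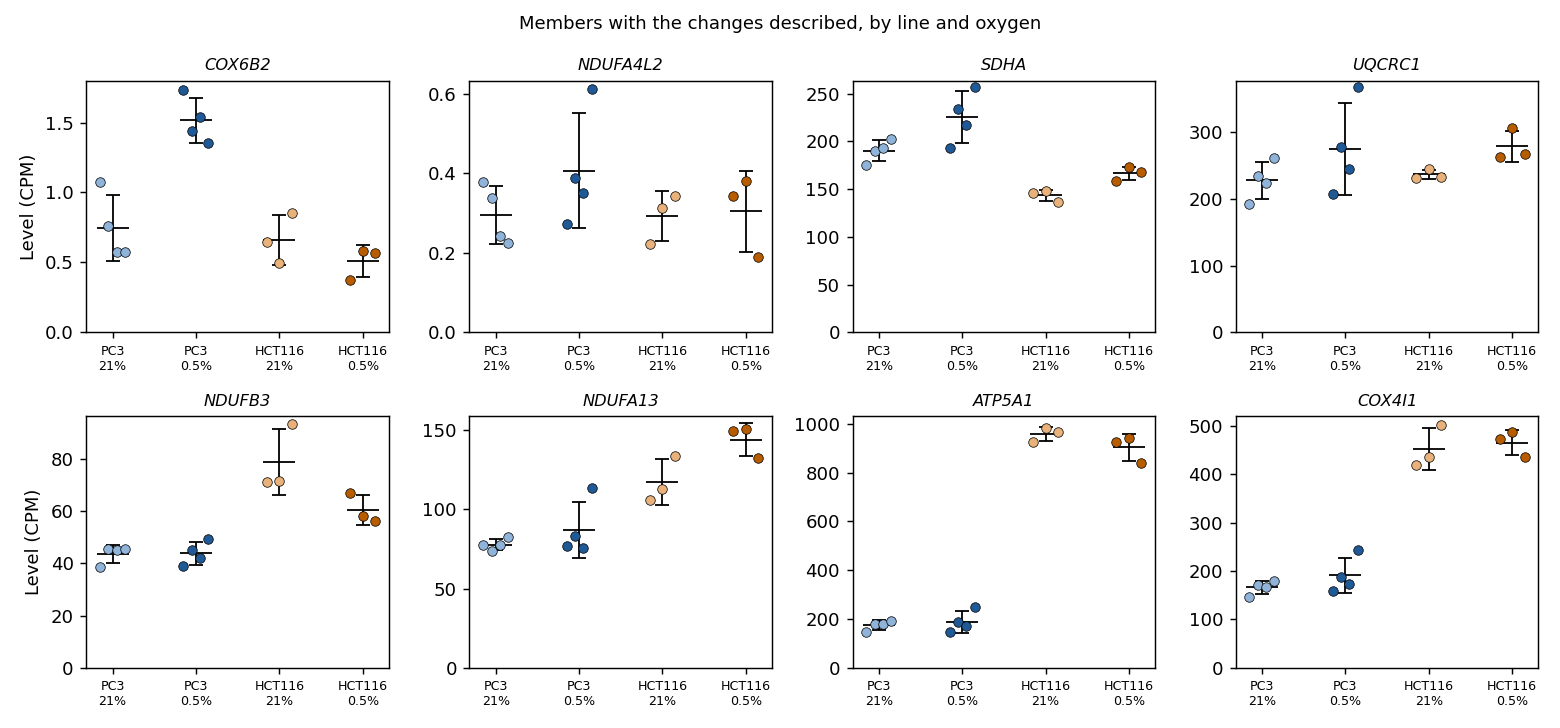
Levels in CPM (linear axes from 0) of 8 members in each library, by line and oxygen. Points are libraries, horizontal bars are means and vertical bars are SD (n = 4 for PC3 and n = 3 for HCT116). COX6B2 separates the PC3 conditions, while ATP5A1 and COX4I1 separate the lines.

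The hypoxia isoforms did not move beyond the spread between replicates in either line. NDUFA4L2 was present at 0.377, 0.337, 0.242 and 0.224 CPM in PC3 normoxia (25 to 45 counts) and 0.274, 0.388, 0.351 and 0.611 CPM in PC3 hypoxia (25 to 41 counts). The highest value was that of PC3 hypoxia replicate 4, and the other hypoxic libraries lay within or just above the normoxic range. The fold was 1.36 (log2 fold change 0.44, SE 0.31, adjusted p = 0.390), with a 95% interval of the log2 change of -0.16 to 1.05.

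In HCT116, NDUFA4L2 was at 0.221, 0.312 and 0.343 CPM in normoxia (33 to 46 counts) and 0.343, 0.381 and 0.189 CPM in hypoxia (24 to 53 counts). The groups overlapped (log2 fold change 0.09, SE 0.35, adjusted p = 0.885, interval -0.61 to 0.78). These intervals include rises as large as their upper bounds, so the absence of a call does not show that NDUFA4L2 was unaffected. NDUFA4L2 made up 0.543% to 1.14% of the NDUFA4 and NDUFA4L2 pair per length in PC3 and 0.302% to 0.601% in HCT116.

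NDUFA4, the form NDUFA4L2 is thought to replace, was at 70.6 to 88.3 CPM in PC3 normoxia and 70.7 to 116 CPM in PC3 hypoxia, and at 121 to 212 and 135 to 157 CPM in HCT116. Neither change passed (adjusted p = 0.586 in PC3 and 0.691 in HCT116). COX4I2 had no count in any of the 8 PC3 libraries or the 3 hypoxic HCT116 libraries. It had 1 count in 1 normoxic HCT116 library. A library at 0 allows at most 3 counts, or 0.0199 to 0.0421 CPM without TMM scaling. COX4I1 was at 147, 171, 167 and 180.4 CPM in PC3 normoxia and 159, 188, 173 and 243 CPM in PC3 hypoxia, and did not pass (log2 fold change 0.20, SE 0.12, adjusted p = 0.326). In HCT116 it did not pass either (log2 fold change 0.06, SE 0.08, adjusted p = 0.653).

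The heart and muscle forms COX6A2 and COX7A1 and the testis forms COX7B2 and COX8C were likewise at or near 0. COX6A2 had no count in any library, COX7B2 had at most 1, COX7A1 had 0 to 1 in PC3 and 0 to 7 in HCT116, and COX8C had 0 to 3 in PC3 and 0 to 7 in HCT116. Their common counterparts were abundant: across all 14 libraries COX6A1 ranged from 153 to 283 CPM, COX7A2 from 50.6 to 217 and COX7B from 85.9 to 207 CPM, and COX8A was at 113 CPM or more. None of these 4 passed in either line in edgeR's test without a block, and COX8A, with adjusted p = 0.0502 in HCT116, passed there with DESeq2 (adjusted p = 0.0371) and with the block (adjusted p = 0.0423). Of the tissue and hypoxia isoforms, COX6B2 and NDUFA4L2 were the 2 with enough counts to be tested.

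By size rather than by call, the subunits leaned upwards in PC3. Of the 81 tested, 70 had a log2 fold change above 0, against 50.4% of all genes, and their median was 0.14, against 0.00 over all genes. The medians were 0.10 for complex I, 0.13 for complex II, 0.15 for complex III, 0.20 for complex IV and 0.11 for complex V.

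The size of this lean depended on 1 library, PC3 hypoxia replicate 4. Without it, and with its same-numbered normoxic library kept, 40 of 81 were above 0 and the median was 0.00. In that library the members deviated from their PC3 means by a median of 0.44 on the log2 scale, while 824 other genes with transcripts of at most 1 kb deviated by 0.23 and 3634 genes of at least 5 kb by -0.11. PC3 normoxia replicate 1 and PC3 hypoxia replicate 1 stood at the other end, at -0.22 and -0.21 for the members. The part of transcript length in these shifts was not tested. The upward lean also shrank with the scaling, to 49 of 81 above 0 with a median of 0.03 when libraries were scaled by total count. Between same-numbered libraries, the sums of complexes II, III and IV were higher in hypoxia at every replicate number. For complex III they went from 1129 to 1175, 1357 to 1464, 1314 to 1336 and 1451 to 1885 CPM. The sums of complexes I and V were not higher in hypoxia at replicate numbers 1 and 3.

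**Figure D2:**
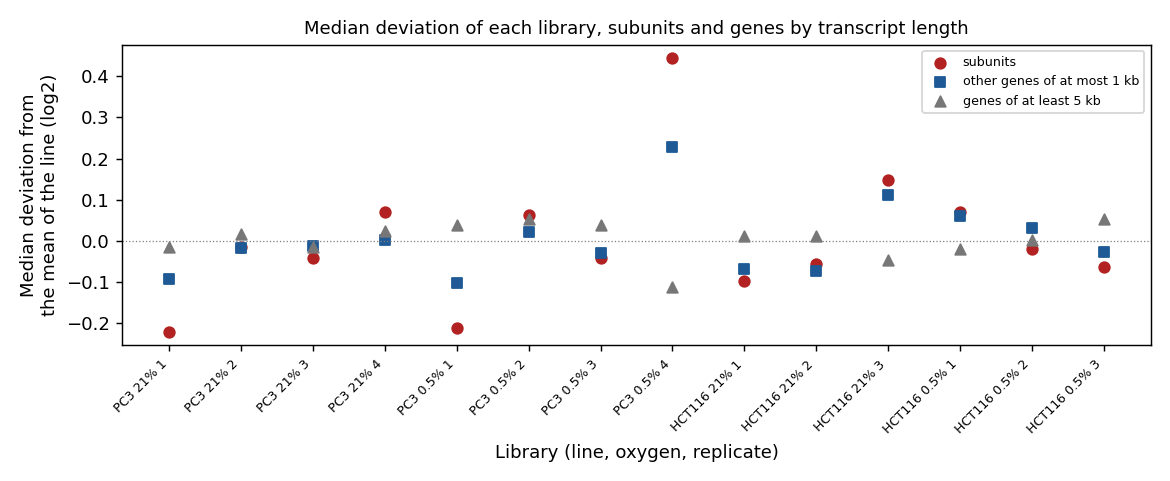
Median deviation (log2 CPM) of each library from the mean of its line, for the 81 tested members (circles), other genes of at most 1 kb (squares) and genes of at least 5 kb (triangles). PC3 hypoxia replicate 4 lies highest for members, at 0.44, with short genes at 0.23 and long genes at -0.11.

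With the replicate number as a block, since same-numbered PC3 libraries deviated together, 5 members passed in PC3 and all rose, where 14.9% of all genes rose in that fit. COX6B2 was first (log2 fold change 1.06, adjusted p = 0.00598). SDHA, the catalytic flavoprotein of complex II, followed with 0.24 (adjusted p = 0.0165), and then NDUFB4, an accessory subunit of the membrane arm of complex I, with 0.23 (0.0246), UQCRC1, a core protein of complex III, with 0.25 (0.0428), and ATP5J2, subunit f of ATP synthase, with 0.18 (0.0482). In the fit without the block, SDHA stood at 175, 189.9, 193 and 202 CPM in normoxia and 193, 234, 217 and 257 CPM in hypoxia (log2 fold change 0.25, SE 0.09, adjusted p = 0.0976), so each hypoxic library exceeded the normoxic library of the same number although the groups overlapped. NDUFB4 did not overlap, at 92.9 to 102 against 104 to 133 CPM (log2 fold change 0.24, SE 0.08, adjusted p = 0.0869). A total of 3 members, COX6B2, NDUFB4 and NDUFC2, had groups without overlap, all higher in hypoxia, where 9.62% of all genes did so.

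The second question was the same comparison in HCT116. Here 5 of 81 members rose and 1 fell, or 7.41% of those tested, against 14.6% that rose and 11.3% that fell among all 14120 genes (25.9% in either direction). Of these 6, 4 belonged to complex I, 1 to complex II and 1 to complex III. No gene of complex IV or V passed in edgeR's test without a block. DESeq2 also called COX8A (log2 fold change 0.21, adjusted p = 0.0371) and COX6C (-0.30, adjusted p = 0.0214), both of complex IV, and edgeR with the replicate block called COX8A (0.22, adjusted p = 0.0423). The changes were small, the largest being 0.37 on the log2 scale.

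SDHA rose from 146, 148 and 137 CPM in normoxia to 159, 173 and 168 CPM in hypoxia, and the groups did not overlap (log2 fold change 0.23, SE 0.06, adjusted p = 0.0205). UQCRC1 rose from 232, 245 and 233 to 264, 306 and 267 CPM, also without overlap (log2 fold change 0.25, SE 0.07, adjusted p = 0.0254). In PC3, UQCRC1 stood at 192, 234, 224 and 261 CPM in normoxia and 208, 278, 244 and 368 CPM in hypoxia (log2 fold change 0.27, SE 0.16, adjusted p = 0.303). The differences between the lines for these 2 genes were -0.03 and -0.03 on the log2 scale, with 95% intervals of -0.27 to 0.21 and -0.45 to 0.38.

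The other 3 that rose were accessory subunits of complex I. NDUFA13, also known as GRIM-19, went from 106, 113 and 134 to 149, 151 and 132 CPM, where 1 normoxic library lay above the lowest hypoxic one (log2 fold change 0.31, SE 0.10, adjusted p = 0.0332). NDUFC2, of the membrane arm, went from 103, 109 and 114 to 125, 124 and 121 CPM without overlap (log2 fold change 0.20, SE 0.07, adjusted p = 0.0427). NDUFB11, of the same arm, went from 57.5, 58.0 and 59.8 to 66.7, 66.5 and 63.6 CPM, again without overlap (log2 fold change 0.18, SE 0.06, adjusted p = 0.0472).

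The gene that fell was NDUFB3, another accessory subunit of the membrane arm. It stood at 71.3, 71.7 and 93.6 CPM in normoxia and 66.9, 58.2 and 56.3 CPM in hypoxia, so that all hypoxic libraries lay below all normoxic ones (log2 fold change -0.37, SE 0.11, adjusted p = 0.0331). HCT116 normoxia replicate 3 was well above the other 2 normoxic libraries, and without it the log2 change was -0.23 (adjusted p = 0.0587). In PC3, NDUFB3 was at 38.4 to 45.6 CPM and 38.9 to 49.2 CPM (log2 fold change 0.01, SE 0.08, adjusted p = 0.947).

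These calls depended on single libraries. Without HCT116 hypoxia replicate 2 none of the members passed, without HCT116 normoxia replicate 1 or 2 only 2 passed and both fell, and without HCT116 normoxia replicate 3 16 passed and all rose. In HCT116 normoxia replicate 3 the members deviated by a median of 0.15 and short genes by 0.11, with long genes at -0.05. With scaling by total count, none rose and 11 fell, and 23 of the 81 were above 0. With TMM, 42 of the 81 were above 0, against 50.3% of all genes, and the median was 0.00, with medians of -0.05, -0.08, 0.04, 0.07 and -0.03 for complexes I to V.

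**Figure D3:**
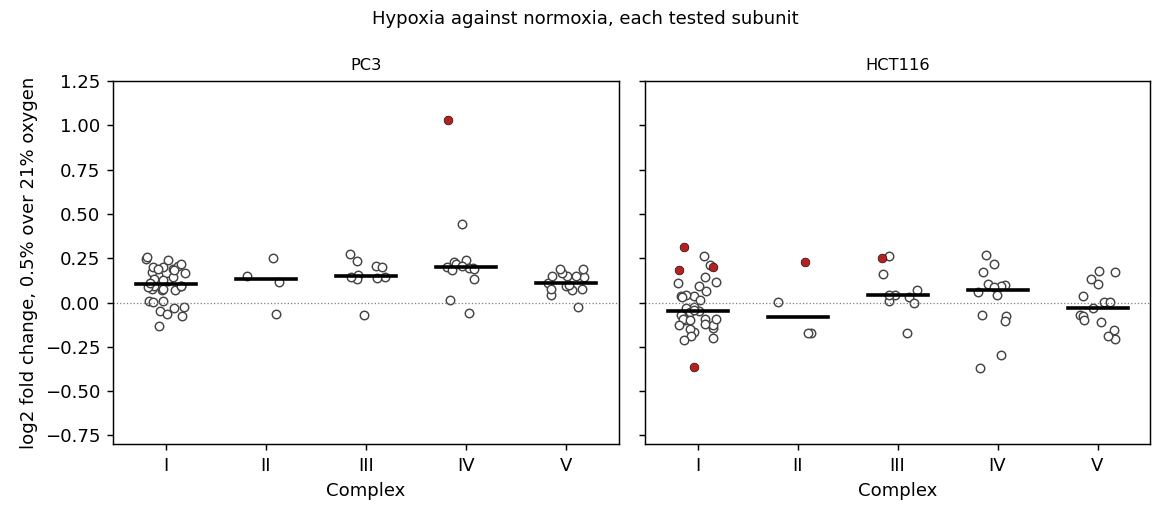
Log2 fold change of hypoxia over normoxia for each tested subunit in PC3 (left) and HCT116 (right), by complex. Filled points passed the threshold and open points did not, and bars are medians. All points but COX6B2 in PC3 lie within 0.5 of 0.

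The catalytic and core subunits were described one by one. In complex I the log2 fold changes of NDUFS1, NDUFS3, NDUFS7, NDUFS8, NDUFV1 and NDUFV2 lay between -0.08 and 0.09 in PC3 and between -0.13 and 0.09 in HCT116, and none passed. In complex II, the iron-sulfur subunit SDHB and the membrane anchors SDHC and SDHD had log2 fold changes of 0.12, 0.15 and -0.07 in PC3 and -0.17, 0.00 and -0.17 in HCT116. SDHB and SDHD were lower in all 3 hypoxic than in all 3 normoxic HCT116 libraries, as were 10 members in all (22.2% of all genes), while 6 were higher (20.3% of all genes), but neither passed (adjusted p = 0.128 and 0.162). In complex III, cytochrome c1 (CYC1) and the Rieske protein (UQCRFS1) had log2 fold changes of 0.14 and 0.20 in PC3 and 0.07 and -0.01 in HCT116. In complex V, the catalytic F1 subunits ATP5A1 and ATP5B stood at log2 fold changes of 0.11 and 0.15 in PC3 and -0.07 and 0.18 in HCT116, where all 3 hypoxic libraries of ATP5B were above the normoxic ones without passing (adjusted p = 0.0708). The 3 genes of the membrane ring subunit c, ATP5G1, ATP5G2 and ATP5G3, had values of 0.08, 0.04 and 0.08 in PC3 and -0.15, -0.08 and 0.04 in HCT116.

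The third question was whether the lines responded differently. None of the 81 passed the interaction of line and oxygen over all 14 libraries in edgeR's test, where 2.32% of all 15493 genes did, and 3 had an unadjusted p under 0.05 (COX6B2, NDUFB3 and NDUFA1). With DESeq2 and with the replicate block, COX6B2 alone passed. With the block, 8.44% of all genes passed. The difference was above 0 for 13 of the 81, against 50.5% of all genes, and its median was -0.12, which became 0.01 without PC3 hypoxia replicate 4.

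Far more subunits passed between the lines than between oxygen levels. In normoxia 50 of 81 members were higher in HCT116 than in PC3 and 7 were lower, against 38.9% higher and 42.4% lower over all 15493 genes. The libraries of the lines did not overlap for 51 members that were higher in HCT116 and 7 that were lower, against 39.7% and 42.7% of all genes. The change was above 0 for 65 members, against 48.3% of all genes, and the median member was 1.52-fold higher (log2 0.61), while the median gene was at -0.05. Genes of at most 1 kb other than the members had a median of 0.46, so short genes as a class also read higher in HCT116, and the part of transcript length in the members' difference was not tested.

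**Figure D4:**
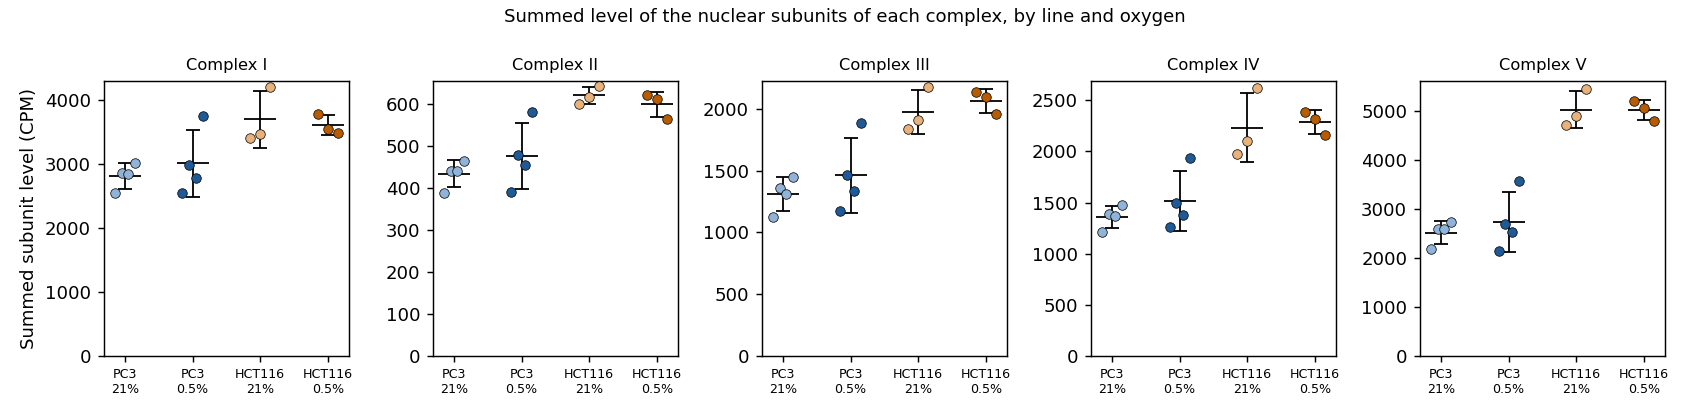
Summed level (CPM, linear axes from 0) of the subunit genes of complexes I to V in each library, by line and oxygen. Points are libraries, horizontal bars are means and vertical bars are SD (n = 4 for PC3 and n = 3 for HCT116). Complex V shows the widest gap between the lines.

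The difference was uneven across the complexes. The summed level of complex V genes was 2516 CPM ± 239 (SD, n = 4) in PC3 and 5025 CPM ± 378 (SD, n = 3) in HCT116, a ratio of 2.00. For complex IV the sums were 1362 CPM ± 109 and 2234 CPM ± 341, a ratio of 1.64. For complex III they were 1313 CPM ± 135 and 1977 CPM ± 177, a ratio of 1.51. For complex II they were 433 CPM ± 32.1 and 619 CPM ± 20.6, a ratio of 1.43. For complex I they were 2812 CPM ± 202 and 3693 CPM ± 443, a ratio of 1.31. In every complex the lowest normoxic HCT116 library lay above the highest normoxic PC3 library.

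As a share of all subunit counts, complex V took 29.2% to 30.2% in PC3 normoxia and 36.1% to 37.7% in HCT116 normoxia, and complex I took 33.0% to 34.1% and 26.7% to 27.9%. The shares in hypoxia were close to those in normoxia, at 28.6% to 30.5% and 36.8% to 37.2% for complex V. These sums are dominated by abundant genes, and counts were not divided by length. Per gene, 12 of 15 tested members of complex V were higher in HCT116 and none lower, 8 of 10 of complex III were higher and 1 lower, 3 of 4 of complex II higher and 1 lower, 7 of 14 of complex IV higher and none lower, and 19 of 36 of complex I higher and 5 lower.

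The widest difference was that of ATP5A1, the alpha subunit of F1, at 147, 178, 180.0 and 193 CPM in PC3 normoxia and 926, 983 and 967 CPM in HCT116 normoxia. HCT116 was 5.48-fold higher (log2 fold change 2.46, SE 0.14, adjusted p = 3.23e-10), with no overlap. Its partner in F1, the beta subunit ATP5B, is the most abundant member per length in both lines and was 1.56-fold higher in HCT116, at 692, 844, 843 and 902 against 1278, 1329.8 and 1230.0 CPM (log2 fold change 0.64, SE 0.14, adjusted p = 0.000720).

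ATP5G1 was next, at 30.3, 45.9, 40.6 and 46.9 CPM in PC3 and 164, 160.1 and 188 CPM in HCT116 (log2 fold change 2.06, SE 0.21, adjusted p = 2.68e-07). It is 1 of 3 genes that encode the same mature subunit c, and the other two differed less, ATP5G3 by 1.21 and ATP5G2 by 0.59 on the log2 scale. NDUFA9, an accessory subunit beside the quinone-binding part of complex I, was at 35.5, 44.7, 42.3 and 47.5 CPM in PC3 and 153, 155 and 196 CPM in HCT116 (log2 fold change 1.98, SE 0.17, adjusted p = 2.22e-08).

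In complex III, UQCRQ, a small accessory subunit, stood at 35.0, 37.1, 37.1 and 37.7 CPM in PC3 and 101, 112 and 169 CPM in HCT116 (log2 fold change 1.79, SE 0.16, adjusted p = 3.35e-08). UQCRHL, a near-identical copy of the hinge protein gene UQCRH whose reads cannot be told apart with certainty, differed by 1.80, and UQCRH itself by 1.01 (adjusted p = 3.09e-05). In complex IV, COX4I1 was 2.72-fold higher in HCT116, at 147, 171, 167 and 180.4 against 418, 436 and 502 CPM (log2 fold change 1.44, SE 0.12, adjusted p = 2.69e-08), and COX7A2 was 3.27-fold higher. COX6B1 differed by 0.93 and COX6A1 by 0.60, and NDUFA4 by 0.97. COX7B and COX8A did not pass (-0.11 and 0.19, adjusted p = 0.683 and 0.216).

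Of the 7 that were lower in HCT116, 5 belonged to complex I, 1 to complex II and 1 to complex III. NDUFV3, an accessory subunit of the NADH-oxidising module, was at 54.4, 57.9, 57.9 and 60.4 CPM in PC3 and 37.8, 35.7 and 35.3 CPM in HCT116 (log2 fold change -0.67, SE 0.06, adjusted p = 8.21e-08). NDUFS8, an iron-sulfur subunit of complex I, was at 97.0 CPM ± 2.13 (SD, n = 4) in PC3 and 65.1 CPM ± 3.60 (SD, n = 3) in HCT116 (log2 fold change -0.57, SE 0.09, adjusted p = 4.29e-05). UQCRB, a ubiquinone-binding subunit of complex III, was at 290.2, 342, 325 and 363 CPM in PC3 and 207, 215 and 254 CPM (log2 fold change -0.55, SE 0.10, adjusted p = 0.000120).

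NDUFV1, the flavin-containing subunit that oxidises NADH, was at 127, 160.1, 155 and 165 CPM in PC3 and 109, 105 and 99.7 CPM in HCT116 (log2 fold change -0.54, SE 0.12, adjusted p = 0.000832). SDHA was at 175, 189.9, 193 and 202 CPM in PC3 and 146, 148 and 137 CPM (log2 fold change -0.40, SE 0.09, adjusted p = 0.000535), while the other three genes of its complex went the opposite way: SDHB by 1.00, SDHC by 1.18 and SDHD by 0.83. The remaining 2 were NDUFA10 at -0.32 and NDUFC2 at -0.19. The ranges of these 7 in the lines did not overlap.

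Among core subunits of complex I, NDUFS3 and NDUFS7 were higher in HCT116 (log2 0.85 and 0.73), NDUFS8 and NDUFV1 lower, and NDUFS1 and NDUFV2 did not pass (0.13 and 0.01). CYC1 differed by 0.44 (adjusted p = 0.0157) and UQCRFS1 by 0.92. ATP5SL differed by 0.60, and ATP5S did not pass (-0.04, adjusted p = 0.813).

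In hypoxia 47 of 81 were higher in HCT116 and 10 lower, against 39% and 41.8% of all genes, and the median difference was 0.51. The sums of complex V differed by a ratio of 1.83 and those of complex I by 1.20. COX6B2, which did not pass in normoxia (-0.17, adjusted p = 0.566), was -1.57 (SE 0.27, adjusted p = 7.18e-05) in hypoxia, the lowest of all members. ATP5A1 stayed highest at 2.26. With the replicate block, 84.7% of all genes passed in normoxia and 83.9% in hypoxia, and 26.6% passed in HCT116 for hypoxia. The comparisons of the lines in normoxia and in hypoxia share no library, although both came from 1 fit.

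**Figure D5:**
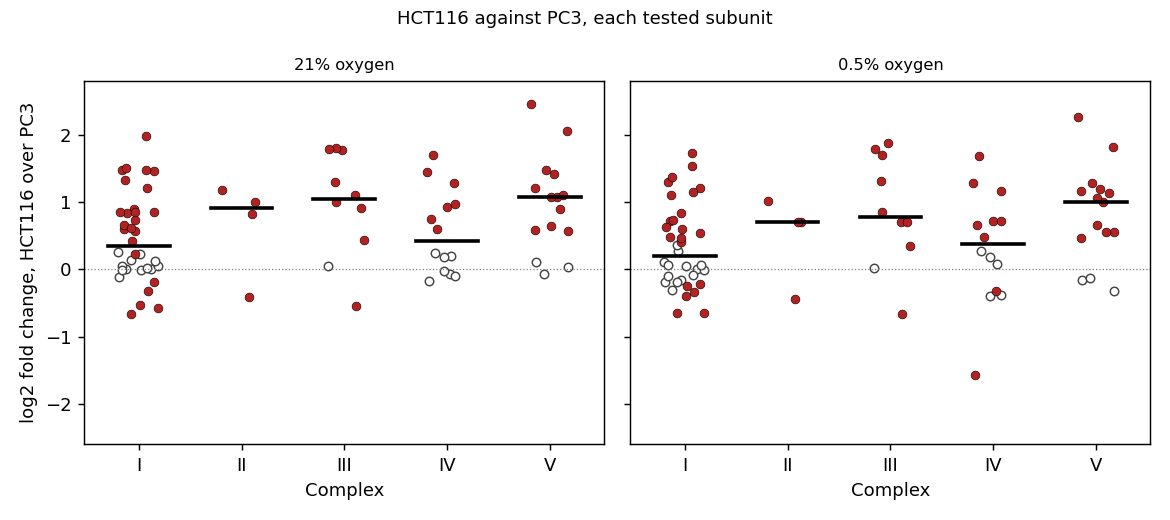
Log2 fold change of HCT116 over PC3 for each tested subunit at 21% oxygen (left) and 0.5% oxygen (right), by complex. Filled points passed the threshold and open points did not, and bars are medians. The medians in normoxia run from 0.34 in complex I to 1.07 in complex V, and the lowest point in hypoxia is COX6B2.

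Levels within a line can be compared between genes only per length of transcript, and were so compared as CPM per kb over both oxygen levels. The length was that of 1 canonical transcript per gene, and the ranking depends on this choice. In complex III it was 8459 bases for UQCRB and 1191 for CYC1, whose CPM in PC3 were similar. NDUFB6 had no length and was left out. The highest member of complex I was NDUFB9, an accessory subunit, in both lines (398 CPM per kb in PC3 and 554 in HCT116). In complex II it was SDHD in PC3 (78.9, with SDHB close behind at 77.5) and SDHB in HCT116 (140, with SDHD at 134). In complex III it was CYC1 in PC3 (287) and UQCRH in HCT116 (485), and in complex IV COX6A1 in PC3 (326) and COX4I1 in HCT116 (601). ATP5B was highest in complex V and over all members in both lines (491 and 770).

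Genes around the complexes were read from lists by function. Of 49 assembly factors tested, 1 rose and none fell in PC3, COX20, a chaperone of complex IV, by 0.27 (adjusted p = 0.0446), against 6.03% and 5.29% of all genes. With the replicate block 4 rose and 11 fell in PC3, against 14.9% and 13.6% of all genes, among them TTC19 and LYRM7, which fell (adjusted p = 0.00283 and 0.00416 with the block, 0.305 and 0.113 without). In HCT116 none rose and 8 fell, against 14.6% and 11.3% of all genes, the largest falls being those of the complex I factors NDUFAF4 (log2 fold change -0.59, adjusted p = 0.00224) and NDUFAF5 (-0.44, adjusted p = 0.0427) and the complex III factor LYRM7 (-0.35, adjusted p = 0.0110). The median over the 49 was -0.01 in PC3 and -0.11 in HCT116, against 0.00 for all genes in each. In normoxia 28 were higher in HCT116 and 10 lower, against 38.9% and 42.4% of all genes, led by SURF1 (a complex IV factor) at 2.01, ACN9 at 1.98 and NDUFAF4 at 1.68. The lowest were COX18 at -1.04, COX19 at -0.78 and TIMMDC1 at -0.77.

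Of 5 further subunits and partners (among them CYCS, the electron carrier cytochrome c, and NDUFAB1, the acyl carrier protein of complex I), none passed in PC3, and CYCS fell in HCT116 (log2 fold change -0.34, adjusted p = 0.0259). In normoxia 4 of the 5 were higher in HCT116 than in PC3, against 38.9% of all genes, CYCS by 1.23. Of 14 genes of mitochondrial biogenesis tested, MTERF, of mitochondrial transcription termination, fell in both lines (-0.29 in PC3 and -0.40 in HCT116, adjusted p = 0.0413 and 0.0113). It was the 1 gene of this list to pass in PC3 without the block, where 5.29% of all genes fell. With the block 7 of the 14 fell and none rose, against 13.6% and 14.9% of all genes. TFB2M, a mitochondrial transcription factor, fell in HCT116 (-0.48, adjusted p = 0.00951) and POLG, the mitochondrial DNA polymerase, rose there by 0.23 (adjusted p = 0.0362).

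Of 14 genes tested that are known to act on respiration in hypoxia, 5 rose and 1 fell in PC3, against 6.03% and 5.29% of all genes. With the replicate block 6 rose and 2 fell there, against 14.9% and 13.6% of all genes. In HCT116 6 rose and 1 fell, against 14.6% and 11.3% of all genes. BNIP3 and BNIP3L, receptors for the removal of mitochondria, rose by log2 fold changes of 1.71 and 0.96 in PC3 and by 3.22 and 3.26 in HCT116. PDK1, the kinase that shuts the entry of pyruvate into the citric acid cycle, rose by 0.72 in PC3 and 2.99 in HCT116. These 3 genes also passed the interaction, each with the larger rise in HCT116 (BNIP3L by 2.29 and PDK1 by 2.26, adjusted p = 1.30e-06 and 7.16e-06, and BNIP3 with adjusted p = 0.000142). MXI1, a MYC antagonist, rose by 0.87 in PC3 (adjusted p = 0.000656). In HCT116 it was also higher in hypoxia, at 61.0 to 79.5 CPM against 36.5 to 40.2 CPM in normoxia. ISCU, the scaffold on which iron-sulfur clusters are built, fell in both lines (-0.22 in PC3 and -0.47 in HCT116, adjusted p = 0.0432 and 0.000686).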

How the data were processed

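Polyadenylated RNA from biological replicates was sequenced as paired ends. The authors added ERCC spike-in RNA to each sample and normalised expression to it, and they reported no significant change in total mRNA with hypoxia. The spike-in was not used here, so a bulk change in mRNA is not measured by the values given. The authors aligned reads with HISAT2 (version 2.05) to GRCh37 and counted them over RefSeq genes with HTSeq (version 0.5.4p3, intersection-strict), and they deposited raw counts per gene. From these, edgeR 4.0.16 in R 4.3.3 was run here (filterByExpr, TMM, quasi-likelihood test, Benjamini-Hochberg adjustment over all genes, threshold 0.05), in each line for hypoxia and over all 14 libraries for the lines and the interaction, for which replicate error is shared. Each SE was derived from the unshrunk log2 fold change and its F statistic, and 95% intervals use the normal approximation. Printed CPM use the factors of the 14-library fit, whereas hypoxia fold changes use each line's own. Lengths, positions and overlaps are from GENCODE on GRCh37, and promoters are from RefSeq on GRCh38.p14. The scripts were tested on simulated data. Limits given as 3 counts cover counting error only.

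The tests had no block for the replicate number, and a fit with the block was an alternative. Deviations of same-numbered libraries correlated in each of the 4 PC3 pairs (0.144 to 0.677), each above its highest correlation with another number (-0.144 to 0.200). The numbers were taken as pairing there. In HCT116 the correlations were weaker (0.044 to 0.138), though each was also above those with other numbers (at most -0.050 to 0.0014). Pairing was thus clearer in PC3 and is not settled in HCT116. PC3 counts are also given with the block where it changed them. All other PC3 values are from the fit without it. Members and lists were chosen with earlier results of these data known. Genes were named by rule: the isoform pairs, subunit c, SDH, core and catalytic subunits, the 3 largest calls per complex and direction in hypoxia, the 5 members that differed most between the lines, each way, interaction calls, and in other lists the calls or the 3 largest. IL11, SUV420H2, NDUFA10, NDUFA1, COX6C, TTC19 and the members called with the block were named after their values were seen. A gene that the rule would name is not reported here. Alternatives were other scalings and filters, DESeq2 1.42.0, the block, a fold threshold and each library left out.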

Additional observations from a re-analysis of the deposited data

Results flagged for a closer look

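In 3 of 98 groups of 4 PC3 libraries examined, 1 library lay far from the other three by Dixon's criterion, which chance gives in about 1 of 20 groups. NDUFB3 stood at 38.4 CPM in PC3 normoxia replicate 1, where the others lay between 45.3 and 45.6 CPM. SDHC stood at 83.7 CPM in PC3 hypoxia replicate 4, against 56.4 to 60.7 CPM, and NDUFS8 at 116 CPM in the same library, against 86.6 to 88.8 CPM. PC3 hypoxia replicate 4 is also the library in which the members and other short genes were high.

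The 2 pseudogene symbols left out of the members held reads. ATP5EP2 had 9 to 58 counts in a library and UQCRBP1 had 28 to 132. How far these reads come from the parent genes was not tested.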

How the results depend on the processing

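In PC3 the number of members passing was 1 with median-of-ratios or upper-quartile scaling, 2 with total count scaling, 3 with DESeq2, 5 with the replicate block, 2 in the fit over all 14 libraries and 0 to 2 with 1 library left out. In HCT116 it was 6, and 11 (all lower) with total count scaling, 10 with DESeq2, 1 in the fit over all 14 libraries, 0 with a log2 fold change of at least 0.5, and 0 to 16 with 1 library left out. The replicate block gave 5 in HCT116, where same-numbered libraries correlated only weakly. The interaction called 0 members, and 1, COX6B2, with DESeq2, with at least 10 counts in every library and with the replicate block, and 0 to 1 with 1 library left out. The count between the lines was 57 at either oxygen level, 55 to 59 in normoxia and 54 to 62 in hypoxia with 1 library left out, and 59 and 63 with the block. No named member past the threshold reversed its direction under any of these settings. Genes of the other lists and IL11 were run only with and without the block. Of the HCT116 calls, NDUFB11 was lost in 11 of 14 alternatives, NDUFC2 in 10, NDUFA13 and SDHA in 6 each, UQCRC1 in 5 and NDUFB3 in 3, and the cause was not tested. Isoforms under 60 counts and changes under about 0.2 on the log2 scale lie at the limit of this depth and replication.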
